A study of Mus musculus with 20 samples.

Results

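Silent bivalent promoters are gene windows that carried both H3K4me3 and H3K27me3 in control cells while the gene gave little or no RNA there. They were chosen on the log2(RPM + 0.5) scale, where RPM is reads scaled to the mapped reads of a library. H3K4me3 had to stand at least 1.5 above the same-numbered input DNA in both control libraries, and H3K27me3 at least 1 above it in both. Of the 1992 windows that met this, 1243 had a mean control RNA below 0 on the log2 RPM scale. These 1243 are 4.96% of the 25067 genes with an RNA value, and the whole chromatin table holds 25965 windows, 1 per gene. Another 698 bivalent windows had RNA at or above that limit and are called expressed bivalent promoters below, and 51 had no RNA value. The control levels of both marks and of RNA therefore chose the members, and any comparison that uses those libraries describes the members without being an independent test of them.

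The cells were mouse germline stem cells (GSCs), cultured on a layer of fibroblast feeder cells. Every group started from the genotype Kmt2bF/F; Rosa26-CreERT2, in which a tamoxifen-activated Cre enzyme made in all cells can delete the floxed Kmt2b gene. Control cells were mock-treated with 100% ethanol, and cells labelled knockout (FC/FC) received 1 μM 4-OHT, the active form of tamoxifen. Both were harvested 6 days after treatment, so deletion and drug exposure go together in every comparison and cannot be told apart. Each of the 2 conditions had 2 libraries for H3K4me3, H3K27me3, input DNA and RNA. For H3K9me3 there were 2 libraries of the genotype Kmt2bF/F and 2 separate inputs, and the treatment and day of those cells are not given. The 2 libraries of a group stand for duplicate lines of cells, per the series design, but no label says which line a replicate number stands for. The p-values measure the spread between these 2 libraries.

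H3K4me3 is a histone mark of promoters that are active or can be activated, and Kmt2b (also called Mll2) is one of the enzymes that writes it. H3K27me3 is written by Polycomb repressive complex 2 and goes with gene silencing. Promoters with both marks were first described in embryonic stem cells, where many belong to transcription factors and signalling genes of the embryo, and they are also found in germ cells. H3K9me3, a mark of heterochromatin, is usually kept apart from such promoters.

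Promoter sequences are shown for members picked by their H3K4me3 decrease and for others picked by their level of H3K4me3 in knockout libraries. The following 4 had the largest H3K4me3 decreases on log2(RPM + 0.5) among called members whose libraries did not overlap and whose sequence could be shown, and all carried H3K27me3 only by the same thresholds in knockout cells. Each runs 5′ to 3′ from 250 bases before to 50 bases after the gene start in RefSeq (GRCm38.p6, the build also called mm10), in lower case with every CpG dinucleotide in capitals.
Hapln1 (chr13:89540386-89540685, + strand): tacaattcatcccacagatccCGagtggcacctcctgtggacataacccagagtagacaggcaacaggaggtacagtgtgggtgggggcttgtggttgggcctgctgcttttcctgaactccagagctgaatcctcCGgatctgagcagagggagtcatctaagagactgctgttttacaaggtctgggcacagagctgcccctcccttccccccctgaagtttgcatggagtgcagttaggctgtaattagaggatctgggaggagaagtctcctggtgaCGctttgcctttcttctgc
T (chr17:8434173-8434472, + strand): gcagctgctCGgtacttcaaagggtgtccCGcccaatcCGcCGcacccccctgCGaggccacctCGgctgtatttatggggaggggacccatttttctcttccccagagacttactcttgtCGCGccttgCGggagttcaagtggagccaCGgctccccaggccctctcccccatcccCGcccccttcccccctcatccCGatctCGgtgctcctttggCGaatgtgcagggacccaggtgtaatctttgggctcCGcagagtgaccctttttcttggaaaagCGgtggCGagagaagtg
Tomm20l (chr12:71111178-71111477, + strand): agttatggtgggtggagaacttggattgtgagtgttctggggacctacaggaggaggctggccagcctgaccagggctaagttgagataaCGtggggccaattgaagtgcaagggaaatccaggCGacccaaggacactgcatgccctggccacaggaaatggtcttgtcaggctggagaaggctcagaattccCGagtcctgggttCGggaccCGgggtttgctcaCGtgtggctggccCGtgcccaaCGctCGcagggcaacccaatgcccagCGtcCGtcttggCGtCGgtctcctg
Adcyap1 (chr17:93198918-93199217, + strand): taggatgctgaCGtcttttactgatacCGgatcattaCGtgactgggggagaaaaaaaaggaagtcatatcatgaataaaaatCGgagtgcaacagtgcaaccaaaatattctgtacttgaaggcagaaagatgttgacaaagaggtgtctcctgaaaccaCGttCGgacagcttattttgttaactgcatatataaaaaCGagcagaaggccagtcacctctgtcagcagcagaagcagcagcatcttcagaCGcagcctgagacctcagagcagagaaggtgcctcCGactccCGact
The following 4 had the highest knockout H3K4me3 over input and stayed bivalent.
Vegfc (chr8:54077282-54077581, + strand): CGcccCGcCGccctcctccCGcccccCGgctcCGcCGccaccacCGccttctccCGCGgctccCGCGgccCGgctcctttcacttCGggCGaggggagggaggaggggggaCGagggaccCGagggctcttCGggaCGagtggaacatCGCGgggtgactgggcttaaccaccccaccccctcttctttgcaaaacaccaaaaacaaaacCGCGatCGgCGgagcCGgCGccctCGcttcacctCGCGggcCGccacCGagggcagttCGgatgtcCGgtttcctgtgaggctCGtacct
Gm11650 (chr11:107793622-107793921, + strand): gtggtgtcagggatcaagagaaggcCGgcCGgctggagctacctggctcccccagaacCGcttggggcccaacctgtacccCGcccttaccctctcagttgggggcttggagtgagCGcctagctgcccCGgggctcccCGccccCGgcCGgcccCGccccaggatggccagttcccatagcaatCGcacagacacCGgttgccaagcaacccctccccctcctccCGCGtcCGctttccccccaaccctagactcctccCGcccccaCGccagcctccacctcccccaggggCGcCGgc
Vgll3 (chr16:65814939-65815238, + strand): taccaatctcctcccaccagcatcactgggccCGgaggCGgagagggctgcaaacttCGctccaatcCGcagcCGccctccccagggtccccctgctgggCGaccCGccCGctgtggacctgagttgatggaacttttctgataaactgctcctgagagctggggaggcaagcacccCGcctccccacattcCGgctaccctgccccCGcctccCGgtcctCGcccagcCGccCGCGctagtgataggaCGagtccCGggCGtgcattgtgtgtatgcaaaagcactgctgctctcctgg
9330162012Rik (chr13:24937151-24937450, + strand): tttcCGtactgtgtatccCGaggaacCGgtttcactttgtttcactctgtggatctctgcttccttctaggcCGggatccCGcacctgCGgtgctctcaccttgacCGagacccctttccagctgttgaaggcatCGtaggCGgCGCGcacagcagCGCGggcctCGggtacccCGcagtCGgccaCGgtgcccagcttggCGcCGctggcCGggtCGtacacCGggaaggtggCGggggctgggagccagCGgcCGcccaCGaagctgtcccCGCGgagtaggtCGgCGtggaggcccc
The Adcyap1 and Vgll3 starts in RefSeq lay at -254 and -444 bases from the starts in the deposited table, so their sequences need not centre on the window that was measured. The first 4 promoters held 3 (Hapln1), 17 (T), 13 (Tomm20l) and 10 (Adcyap1) CpG dinucleotides. The retained promoters held 35 (Vegfc), 19 (Gm11650), 19 (Vgll3) and 30 (9330162012Rik). These 4 had 19.3 to 29.2 RPM of H3K4me3 in control libraries, against 5.31 to 14.4 RPM at the first 4. The sets therefore differ in control level as well as in change. Across the 32851 promoters of the same length in the RefSeq table the median was 7, with quartiles at 3 and 20. Counted on both strands, the motif CCGCCC occurred in T and in each of the 4 retained promoters, against 35.7% of all promoters of that length. The E-box CACGTG occurred in Tomm20l alone (7.15% of all), and TATAAA in Adcyap1 alone (13.6% of all). These are matches of letters in 8 promoters picked for their H3K4me3, and 808 of 1243 members (65.0%) had a sequence, so no composition over the whole set is given.

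H3K4me3 libraries held 3830045 to 18035122 mapped reads, H3K27me3 libraries 10538531 to 14810135 and RNA libraries 38458010 to 45771857. H3K4me3 knockout replicate 1 was the shallowest library, and 1 read there was worth 0.261 RPM. The median member held 11 H3K4me3 reads in it, against 80 in knockout replicate 2 and 88 and 197 in the controls. The inputs gave a median of 6 to 8 reads per member window. Kmt2b, listed as Wbp7, had 142 and 150 RPM of RNA in control and 131 and 185 RPM in knockout libraries. These values overlap, but they sum reads over the whole gene, and the deleted exons are not given, so they do not check the labels. All 15 germ cell markers were detected in RNA (Dazl at 735 to 787 RPM, Ddx4 at 356 to 434 RPM), and fibroblast markers of the feeder layer were present too (Col1a1 at 131 to 245 RPM). In such mixed samples fewer cells of a type and less RNA per cell cannot be told apart. H3K4me3 and H3K27me3 were likewise measured over whole cell populations, so both marks at a window need not come from the same cells.

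H3K4me3 was lower in knockout libraries at silent bivalent promoters as a group. Over the 1243 members, the median was 8.49 and 10.9 RPM in control replicates 1 and 2, and 2.87 and 4.83 RPM in knockout replicates 1 and 2. The fitted log2 change was below 0 at all 1243 members, from -3.52 to -0.11, with a median of -1.37 and quartiles of -1.74 and -1.06. Across the 15624 windows tested the median was -0.26. The libraries of the 2 groups did not overlap at 1213 members, where knockout was lower, against 42.8% of windows tested. With limma and Benjamini-Hochberg adjustment over all windows, 582 of 1243 members (46.8%) were called lower and 0 higher (0 higher also at an unadjusted p under 0.05 and with limma voom), against 9.9% of windows called lower and 0.0512% higher. Of the 697 expressed bivalent promoters tested, 272 (39.0%) were called lower, with a median of -1.16. Of the 1529 silent promoters with H3K4me3 only, 273 (17.9%) were, with a median of -0.82. The difference between these classes was not tested.

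The number of calls rested on single libraries, while the direction did not. Without the shallow knockout replicate 1, 364 members were called lower and the median was -0.98. Without knockout replicate 2, 1136 were called lower, with a median of -1.74. Without control replicate 1 or control replicate 2, limma called 0 members after adjustment (328 and 106 at an unadjusted p under 0.05), and the medians were -1.54 and -1.19. The 2 knockout libraries differed from each other more than the 2 controls did, as the library medians above show. Scaling moved the count too: 125 members were called lower after quantile normalization and 112 after the median change over all windows was subtracted, with 0 called higher in either. Over all windows, higher calls were 0.515% of calls on the values as deposited and 41.0% and 16.2% under these scalings.

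Members were also chosen in 1 control library and measured against the other, so that the library that chose them did not enter the change. Chosen in control replicate 1, 1665 windows met the rule. Against control replicate 2, their median H3K4me3 change on log2(RPM + 0.5) was -1.65 in knockout replicate 1 and -1.01 in knockout replicate 2, where all windows tested had -0.57 and -0.11. Chosen in control replicate 2, 1394 windows met it. Against control replicate 1, their medians were -1.38 and -0.72, where all windows tested had -0.39 and 0.06. In these 4 settings between 97.1% and 100% of the chosen windows lay below 0. The H3K4me3 difference at silent bivalent promoters was therefore present, and larger than over all windows, in each library pair.

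**Figure D1:**
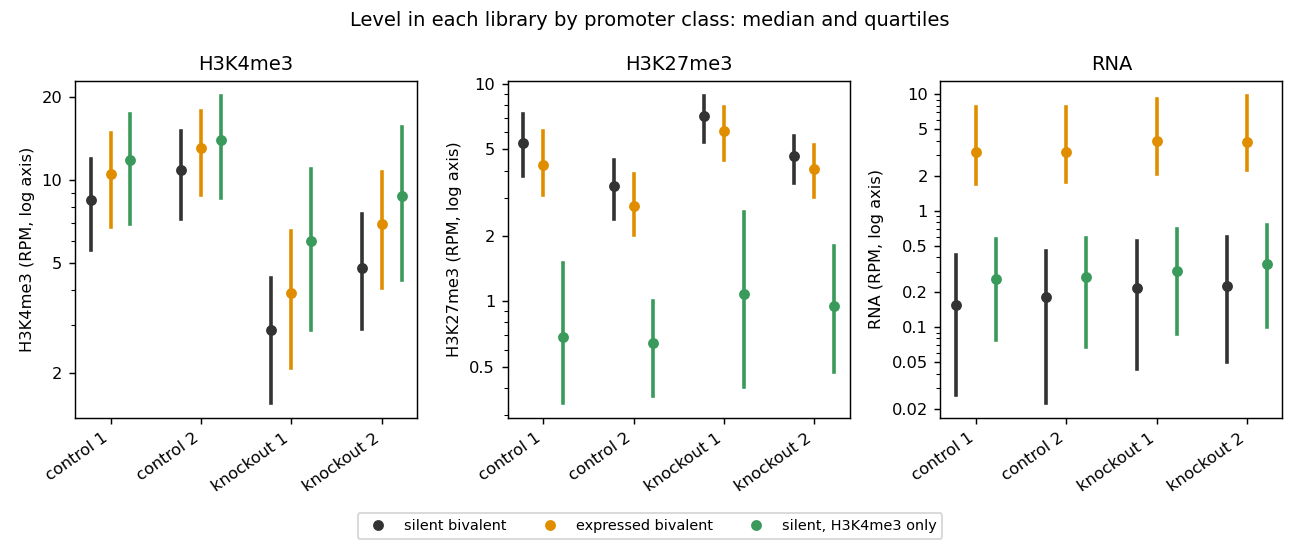
Level of H3K4me3, H3K27me3 and RNA (RPM, log axes) in each library for silent bivalent promoters, expressed bivalent promoters and silent promoters with H3K4me3 only. Points are medians over windows and lines span the quartiles. For silent bivalent promoters, median H3K4me3 was 8.49 and 10.9 RPM in control libraries and 2.87 and 4.83 RPM in knockout libraries.

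The 12 called members described next had the largest decreases on log2(RPM + 0.5), which weighs low values less, among those whose libraries did not overlap. The log2 changes printed are on the values as deposited, where other called members such as Six3, Fgf4 and Prdm8 had larger decreases than some of the 12. T, which encodes the mesoderm transcription factor brachyury, had 12.3 and 14.4 RPM of H3K4me3 in control and 0.522 and 4.403 RPM in knockout libraries. Both knockout libraries lay well below both controls, with a log2 change of -3.13 (SE 0.56, limma adjusted p = 7.4e-05). Hapln1, a link protein of cartilage matrix, had 5.89 and 8.04 RPM in control and 0.261 and 1.39 RPM in knockout libraries, a change of -3.51 (SE 0.70, limma adjusted p = 0.000833). In knockout replicate 1 this was the value of 1 read. Tomm20l, a relative of the mitochondrial import receptor Tomm20, went from 5.98 and 7.10 RPM to 0.261 and 1.33 RPM. Adcyap1, which encodes the neuropeptide PACAP, had 5.31 and 6.04 RPM in control and stood at 1.27 RPM in knockout replicate 2, with no read in replicate 1. Dpys, an enzyme of pyrimidine breakdown, had 8.01 and 8.93 RPM in control and 0.261 and 2.41 RPM in knockout libraries.

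The other 7 of these 12 were Gm15821, Ftmt (mitochondrial ferritin), 1700128F08Rik, Proc (the anticoagulant protein C), BC030500, Lhfpl4 (a membrane protein of inhibitory synapses) and Tnfrsf21 (death receptor 6). Their control H3K4me3 ran from 5.60 RPM at BC030500 to 15.2 RPM at Tnfrsf21, and their log2 changes from -3.35 at Gm15821 to -2.69 at Lhfpl4. Tnfrsf21 shows how far the knockout libraries could differ, with 0.522 RPM in replicate 1 and 9.35 RPM in replicate 2 against 15.0 and 15.2 RPM in control. Without knockout replicate 1 its change was -0.69 and limma no longer called it (adjusted p = 0.147), while the other 11 kept their call (Hapln1 at -2.31, T at -1.59). Without either control replicate none of the 12 was called, with changes between -3.74 and -2.49. By the thresholds that chose the members, which both libraries had to meet, all 12 were classed as H3K27me3 only in knockout cells. At Tnfrsf21 this class was set by knockout replicate 1. Its replicate 2 held 9.35 RPM of H3K4me3 against 0.492 RPM in the input. Their fitted H3K27me3 changes ran from 0.12 at Tomm20l to 1.00 at 1700128F08Rik, and none was called.

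**Figure D2:**
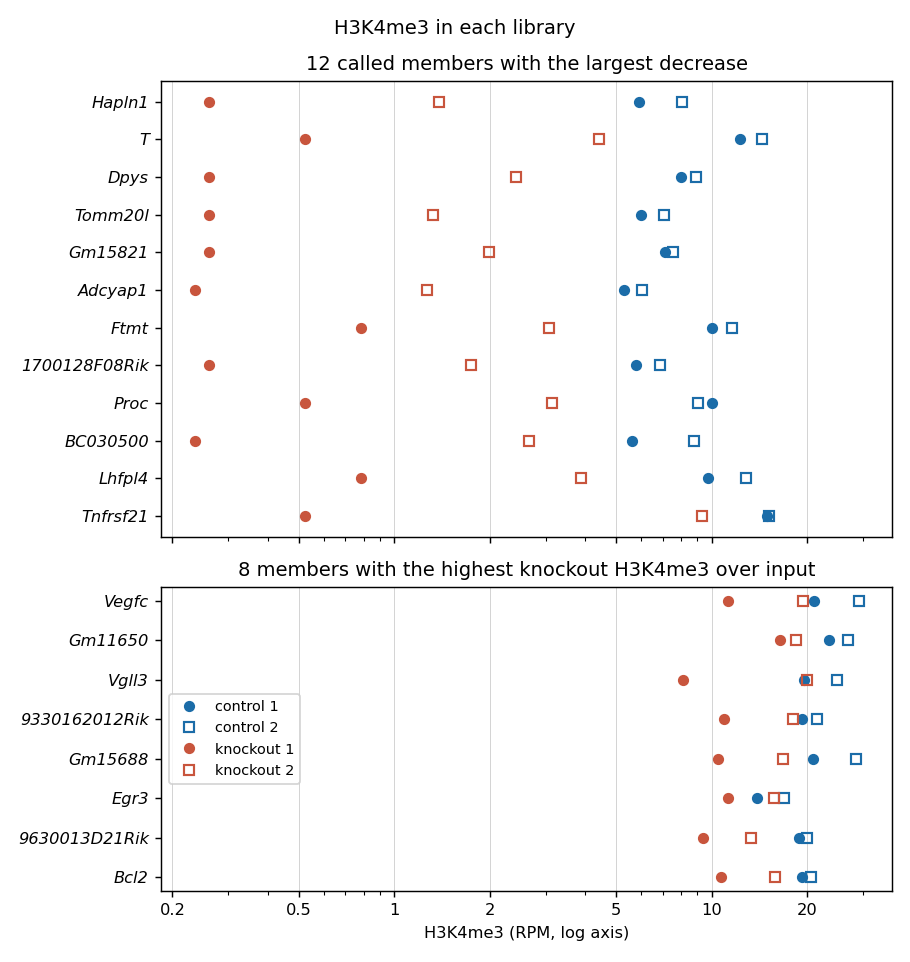
H3K4me3 (RPM, log axis) in each of the 4 libraries for the 12 called members with the largest decrease on log2(RPM + 0.5) and the 8 members with the highest knockout H3K4me3 over input. Filled circles are replicate 1 and open squares replicate 2. At all 12 in the upper panel both knockout libraries lie left of both controls, and at Egr3 and Vgll3 in the lower panel the groups overlap.

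Other members kept strong H3K4me3. The 8 with the highest knockout H3K4me3 over knockout input stood 3.84 to 4.11 above input on log2(RPM + 0.5), and all stayed bivalent. Vegfc, the growth factor of lymphatic vessels, had 20.9 and 29.2 RPM in control and 11.2 and 19.4 RPM in knockout libraries. The knockout values lay below both controls, and limma did not call the change of -0.74 (SE 0.29, adjusted p = 0.0814). Gm11650 had 23.4 and 26.9 RPM in control and 16.4 and 18.5 RPM in knockout libraries. At Vgll3, a cofactor of TEAD transcription factors, knockout replicate 2 (19.9 RPM) lay between the controls (19.5 and 24.9 RPM) while replicate 1 was at 8.09 RPM.

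Egr3, a zinc finger factor induced early after stimulation, had 13.9 and 16.9 RPM in control and 11.2 and 15.7 RPM in knockout libraries. Its change of -0.20 (SE 0.35, limma adjusted p = 0.824) was small beside the overlap of the groups, and it turned positive (0.04) without knockout replicate 1. Bcl2, which protects cells from apoptosis, had 19.2 and 20.6 RPM in control and 10.7 and 15.9 RPM in knockout libraries. The other 3 were 9330162012Rik, Gm15688 and 9630013D21Rik, with changes of -0.53, -0.88 and -0.79. Of the 8, Gm15688 alone was called lower (limma adjusted p = 0.0453), and it lost that call without knockout replicate 1 or without either control replicate.

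Members with less H3K4me3 in control had larger fitted decreases. Split at the quartiles of mean control H3K4me3, the lowest group (1.63 to 6.52 RPM, n = 311) had a median log2 change of -1.63. The next 2 groups had medians of -1.47 and -1.31, and the highest (13.6 to 26.8 RPM, n = 311) had -1.20. The number called ran the other way, at 111, 135, 147 and 189 members. These groups use control values that also enter the change, and give no test.

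The thresholds that chose the members were then applied to the knockout libraries and their inputs, and both libraries had to meet them. The shallow H3K4me3 knockout replicate 1 could therefore set a class alone. Its median over input at the members was 1.63, against 2.33 in knockout replicate 2. In knockout cells 658 members (52.9%) were still bivalent, 551 (44.3%) carried H3K27me3 only, 11 carried H3K4me3 only and 23 neither. Of the expressed bivalent promoters, 450 (64.5%) were still bivalent and 196 (28.1%) carried H3K27me3 only. Silent members that stayed bivalent had a median control H3K4me3 of 12.7 RPM and a knockout one of 5.64 RPM. Those left with H3K27me3 only had 6.64 RPM in control and 2.24 RPM in knockout. By the same quartile groups of control H3K4me3, from the lowest up, 25, 116, 236 and 281 members stayed bivalent. A change of class is a crossing of a threshold: limma called H3K4me3 lower at 323 of the 551 and also at 251 of the 658.

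**Figure D3:**
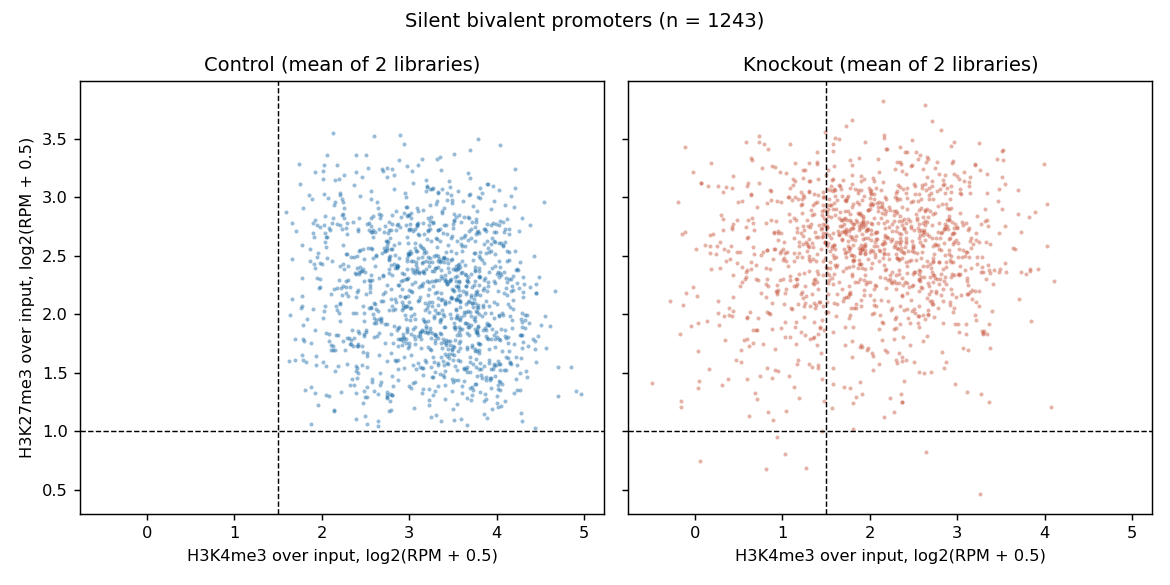
H3K4me3 over input (horizontal) and H3K27me3 over input (vertical), both as log2(RPM + 0.5) differences and means of 2 libraries, at the 1243 silent bivalent promoters in control (left) and knockout (right). Dashed lines mark the thresholds of 1.5 and 1, which the classes in the text apply to each library and not to the means shown. The cloud lies left of its control place on the H3K4me3 axis in knockout, and few members cross the H3K27me3 line.

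The knockout libraries took no part in the choice, so marks over input there are independent of it. H3K4me3 was above input at 1058 of the 1233 members tested (85.8%, limma with Benjamini-Hochberg adjustment). Of the 17091 windows that passed the same filter, 85.7% were called. With no filter on low values, 1058 of 1243 members were called, against 56.8% of all 25965 windows. The median over input was 1.98 for members and 3.64 over all windows tested. Among the 12 members with the largest decreases on log2(RPM + 0.5), Ftmt, Proc and Tnfrsf21 were above input, and the other 9 were not called, Hapln1 standing at 0.17 and T at 0.87. H3K27me3 was above input at 1237 of 1243 members, against 32.9% of windows tested. Its median over input was 2.57 for members and 0.21 over all windows. Most silent bivalent promoters thus kept H3K27me3 in knockout cells, also where H3K4me3 was not called above input. A missing call does not show that the mark was absent. At T, knockout replicate 2 held 4.40 RPM of H3K4me3 against 0.772 RPM in its input.

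H3K27me3 itself did not differ by a called amount. The median member had 5.34 and 3.39 RPM in control replicates 1 and 2, and 7.09 and 4.65 RPM in knockout replicates 1 and 2. The groups overlap, since control replicate 1 lay above knockout replicate 2. Within each replicate number the knockout median lay above the control one, and no label says whether same-numbered libraries are a pair. The fitted median was 0.38 for members and 0.45 over the 4807 windows tested. Those windows had to reach a mean of 1 RPM over control and knockout libraries. With no filter on low values it was 0.38 for members and 0.17 over all 25965 windows. Classes differed among the windows tested, with -0.04 for silent promoters with H3K27me3 only and 0.85 for those with H3K4me3 only. limma called 0 members in either direction after adjustment (before adjustment, a p under 0.05 was met by 22 in the higher direction and 0 in the lower, and limma voom on recovered reads also called 0). Over all windows 0.791% were called higher and 0% lower. At 337 members (27.1%) both knockout libraries lay above both controls, against 36.9% of windows, and at 9 both lay below, against 3.14%. After the median change over all windows tested was subtracted, the members' median change was -0.07, and limma again called 0. With each library centred on its own median, 54 members were called lower and 2 higher, and over all windows the share of higher calls was 28.6% in place of 100%.

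The 6 members with the largest H3K27me3 differences in each direction were ranked on log2(RPM + 0.5), and none was called. Celsr3, a cadherin of planar cell polarity and axon tracts, had 3.76 and 1.099 RPM in control and 7.16 and 5.41 RPM in knockout libraries. Its libraries did not overlap, with a change of 1.61 (SE 0.59) that limma did not call (adjusted p = 0.187). Slc8a3, a sodium-calcium exchanger, had 3.83 and 2.75 RPM in control and 9.72 and 6.45 RPM in knockout libraries. Gm14858, 1700008P20Rik, Abhd15 and Ccdc109b, the last a subunit of the mitochondrial calcium uniporter, had changes of 1.26 to 1.36, none called. In the other direction stood Tusc5, Gm12698, Gm11739, Foxi1, Gm15396 and Tnfsf8 (CD30 ligand), with changes of -0.78 to -0.45. At Tusc5, 3.22 and 3.02 RPM in control faced 3.17 and 1.04 RPM in knockout libraries, so the difference was in knockout replicate 2. Tusc5, Gm12698, Foxi1 and Tnfsf8 changed sign without that library. Tusc5, Gm12698 and Gm11739 carried neither mark above threshold in knockout cells, and Gm15396 carried H3K4me3 only.

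H3K9me3, which the choice did not use, was low. limma called it below its own input at 1195 of 1242 members tested, against 83.5% of windows, and above it at 1 member, against 5.88%. The members' median over input was -0.69 and that of all windows -0.67, so the members lay close to gene windows in general. The median member held 3 and 4 reads in the H3K9me3 libraries, which limits what can be seen at a single promoter. The 1 member above input was Acoxl, a relative of acyl-CoA oxidase, with 1.95 and 0.888 RPM against 0.315 and 0.591 RPM in the inputs (0.97 on log2(RPM + 0.5), SE 0.32, limma adjusted p = 0.0135). Without H3K9me3 replicate 2, 6 members were called above input. Next in order came Lilra5, 1700128F08Rik and Olfr601 at 0.45, 0.33 and 0.29, none called. Acoxl had H3K4me3 of 2.80 and 5.05 RPM in control and 1.27 RPM in knockout replicate 2, with no read in knockout replicate 1.

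RNA of the members stayed low in knockout cells. The median member had 0.156 and 0.180 RPM in control and 0.218 and 0.225 RPM in knockout libraries, which is 6 to 10 reads. No read was found in any RNA library for 109 members. Both knockout libraries reached 1 RPM at 70 members and both control libraries at 0, and the control figure follows from the rule. A mean of 0.1 RPM over the 4 libraries was met by 796 members, and the other 447 were not tested. Since members were chosen for low control RNA, those that passed did so more easily with high knockout values, and counts among them describe them only. limma with Benjamini-Hochberg adjustment called 22 of the 796 higher and 0 lower (160 and 7 at an unadjusted p under 0.05, and 17 and 0 with limma voom). At 2.76% this is the share of all genes tested (2.85% called higher, 0.366% lower). Among the 698 expressed bivalent genes 50 (7.16%) were called higher.

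The count of calls moved with single libraries here too. It was 24 without control replicate 1, 37 without control replicate 2, 107 without knockout replicate 1 and 61 without knockout replicate 2. After quantile normalization it was 5 and after subtraction of the median change 16, and over all genes higher calls were 88.6% of calls as deposited and 68.0% and 77.9% under these scalings. With membership set in 1 control library and RNA measured against the other, median changes were 0.23 and 0.34, and 0.31 and 0.38. Over all genes tested they were 0.03 and 0.14, and 0.04 and 0.15. The member medians cover only those tested in RNA, 1089 of the 1665 and 873 of the 1394 chosen. Genes with low control RNA are tested more easily with high knockout values, so these medians describe the genes tested only. Feeder markers moved the same way: the 30 fibroblast markers summed to 659 and 702 RPM in control and to 744 and 923 RPM in knockout libraries, with 18 of the 30 higher in both knockout libraries and 4 called higher by limma. The 15 germ cell markers summed to 2810 and 2734 RPM in control and 2679 and 2979 RPM in knockout libraries. Of the 15, 8 were higher and 2 lower in both knockout libraries, and limma called 2 higher and 0 lower. Over all genes tested, 36.1% were higher and 14.8% lower in both knockout libraries, and limma called 2.85% higher and 0.366% lower. Markers of Sertoli and Leydig cells summed to 557 to 627 RPM and those of blood to 8.16 to 10.6 RPM, with overlapping groups. The steroid enzymes Cyp17a1 and Hsd3b1 and the globin Hbb-b1 had no read in any RNA library, and the leukocyte antigen Ptprc had 0 to 4. None of these markers was among the 22, and the part of the feeder cells in the RNA differences was not tested.

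Of the 22 genes called higher, 12 belonged to the developmental lists described below. Pdx1, the master factor of the pancreas, had 0 and 4 reads in control and 33 and 24 reads in knockout libraries, or 0.0901 RPM in control replicate 2 against 0.721 and 0.600 RPM. Its log2 change of 3.84 (SE 0.73, limma adjusted p = 0.0358) depends on the floor given to control replicate 1. Gsx2, a homeobox factor of the forebrain, had 0.104 and 0.0676 RPM in control and 0.677 and 0.550 RPM in knockout libraries. Both rose from a few reads per library to between 22 and 33.

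Nkx2-3, a homeobox factor of gut and spleen, had 0.286 and 0.293 RPM in control and 1.79 and 1.57 RPM in knockout libraries. Both knockout values were above both controls, with a log2 change of 2.54 (SE 0.29, limma adjusted p = 0.0136). Dio3, the enzyme that inactivates thyroid hormone, had 0.910 and 0.947 RPM in control and 3.78 and 3.77 RPM in knockout libraries, a change of 2.02 (SE 0.19, limma adjusted p = 0.00918). En1, which patterns the midbrain and hindbrain, had 0.520 and 0.451 RPM in control and 2.18 and 1.85 RPM in knockout libraries. BC068157, Rxrg (a retinoid X receptor), Gsc (goosecoid, a factor of the gastrula organizer), Nxph4 (a neurexophilin) and Zic4 (a zinc finger factor of the cerebellum) changed by 1.91 to 2.56. The groups did not overlap at any of these 10. With no filter on low values, Pdx1, Gsx2, Gsc, Nxph4 and Zic4 were not called, and the same 5 were not called after quantile normalization.

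The other 12 calls are outside the rule for naming and are given after their values were seen: 1500016L03Rik, Sp8, Sox21, Hoxa10, Lhx1, Gpr83, Foxd3, Plekhh3, A730090H04Rik, Tmem102, Lrrc33 and Phf19. Their log2 changes ran from 1.89 at 1500016L03Rik down to 1.14 at Phf19, a Polycomb-associated protein. Over all 22 genes the median was 0.390 and 0.507 RPM in control and 1.65 RPM in each knockout library. Lhx1 (chr11:84517977-84526015) and 1500016L03Rik (chr11:84525660-84535831) overlap at their ends in the deposited coordinates, and whether reads were counted by strand is not stated, so their RNA values are not independent of each other.

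**Figure D4:**
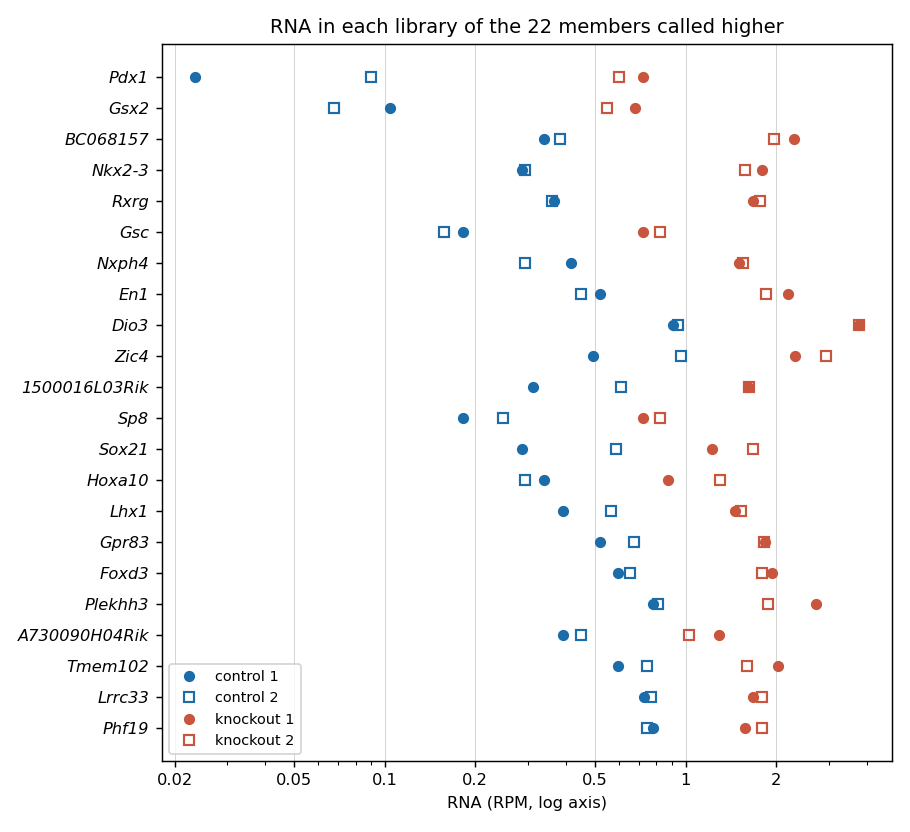
RNA (RPM, log axis) in each of the 4 libraries for the 22 members called higher, ordered by log2 change. Filled circles are replicate 1 and open squares replicate 2. At every gene both knockout libraries lie right of both controls, and no knockout value is above 3.78 RPM.

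The promoter marks of the same 22 genes were compared with those of the other members. All 22 fitted H3K4me3 changes were negative, from -1.86 at Gsx2 to -0.39 at Pdx1, with a median of -0.88. The 774 members that were tested in RNA and not called had a median of -1.34. H3K4me3 was called lower at 3 of the 22 (Gsx2, BC068157 and Lhx1) and at 375 of the 774. By the knockout thresholds 19 of the 22 were still bivalent, against 462 of the 774. In both knockout libraries, Gsx2 met neither limit, Hoxa10 only that of H3K27me3 and Tmem102 only that of H3K4me3. These classes do not show that a mark was absent. At Gsx2 limma called H3K4me3 (1.77, adjusted p = 0.000384) and H3K27me3 (1.37, adjusted p = 0.00174) above knockout input. It also called H3K4me3 above input at Hoxa10 (1.75, adjusted p = 0.000386) and H3K27me3 at Tmem102 (1.02, adjusted p = 0.0193). The 22 and the 774 were not matched for control H3K4me3. Members with more of it had smaller decreases and stayed bivalent more often, as given above, and the difference between the sets was not tested. H3K27me3 changes at the 22 ran from -0.28 to 0.89, with a median of 0.36, none called. Nkx2-3 had 11.97 and 15.0 RPM of H3K4me3 in control and 3.92 and 10.6 RPM in knockout libraries, beside its higher RNA. Across members, H3K4me3 change and RNA change correlated at r = 0.15 (n = 796), and H3K4me3 and H3K27me3 change at r = 0.14 (n = 1243). Members within a correlation share the same libraries, so these values are descriptions.

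Developmental regulators were well represented. Of 14 lists of developmental and neuronal genes, 229 members belonged to at least 1 and 1014 to none. H3K4me3 was called lower at 108 of the 229 and at 474 of the 1014, with medians of -1.34 and -1.38. The counts for single lists below stand beside 46.8% of all members and 9.9% of all windows called lower in H3K4me3. For RNA called higher, the shares were 2.76% of members tested and 2.85% of all genes tested. No list was tested against the other members. RNA was called higher at 12 of 156 tested and at 10 of 640 tested, against 2.85% of all genes tested. Members passed the RNA filter more easily with high knockout values, and the difference between the 2 sets was not tested. Members were 4.96% of all genes with RNA, and 50.8% (65 of 128) of homeobox factors outside the Hox clusters. No member was found among 15 germ cell markers, 30 meiotic genes, 34 spermatid genes or 71 ribosomal protein genes. Genes with control RNA at or above the limit could not be members, so absence of expressed genes follows from the rule. All 15 germ cell markers were above that limit, the lowest being Dppa5a with 8.22 and 6.92 RPM in control. Of 30 genes of undifferentiated spermatogonia 2 were members (T and Lhx1), and of 24 pluripotency genes 4 (Fgf4, Fgf5, Nr0b1 and Prdm14).

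Homeobox factors specify cell types and body regions. Of the 65 members in that list 30 were called lower in H3K4me3 (median -1.36), 35 stayed bivalent and 28 carried H3K27me3 only in knockout cells, and RNA was called higher at 6 of 44 tested. Six3, a factor of the eye and forebrain, had 3.28 and 3.94 RPM of H3K4me3 in control and 0.724 RPM in knockout replicate 2, with no read in knockout replicate 1 (limma adjusted p = 0.00709). Its H3K27me3 was 8.55 and 6.23 RPM in control and 10.1 and 5.88 RPM in knockout libraries. Dbx1, a factor of spinal cord interneurons, had 4.25 and 5.49 RPM of H3K4me3 in control and 0.522 and 1.03 RPM in knockout libraries (limma adjusted p = 0.00904). At both, H3K4me3 was lower in each knockout library while H3K27me3 overlapped.

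Of 28 Hox genes, which set position along the body axis, 10 were members (Hoxa7, Hoxa9, Hoxa10, Hoxa11, Hoxa13, Hoxc11, Hoxc12, Hoxd3, Hoxd9 and Hoxd13). H3K4me3 was called lower at 1 of the 10, with a median of -1.15, and 6 stayed bivalent. Hoxd9 had 8.30 and 8.59 RPM of H3K4me3 in control and 3.39 and 5.19 RPM in knockout libraries, and Hoxa11 had 6.47 and 9.09 RPM against 2.61 and 3.98 RPM. Neither was called. At both the groups did not overlap, as at 97.6% of members and 42.8% of windows tested. RNA was called higher at 1 of 6 Hox members tested, Hoxa10, with 13 and 13 reads in control and 40 and 52 in knockout libraries.

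Of 26 forkhead factors 13 were members, 7 of them called lower in H3K4me3 (median -1.46) and 1, Foxd3, called higher in RNA. Foxb2 had 6.47 and 8.26 RPM of H3K4me3 in control and 1.83 and 2.05 RPM in knockout libraries (limma adjusted p = 0.0255). Of 51 bHLH factors, which include the factors that start muscle and nerve development, 19 were members. H3K4me3 was called lower at 10 of them (median -1.50), and 15 carried H3K27me3 only in knockout cells while 4 stayed bivalent. Ferd3l had 6.85 and 11.0 RPM in control and 3.39 and 4.10 RPM in knockout libraries, and Msgn1, a factor of presomitic mesoderm, had 3.19 and 5.49 RPM against 2.09 and 2.41 RPM. Neither was called, and both had no RNA read in any library.

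Of 36 Sox, T-box and Gata factors 10 were members, 4 of them called lower in H3K4me3 (median -1.33) and 1, Sox21, called higher in RNA. Sox17, a factor of endoderm, had 4.44 and 4.88 RPM of H3K4me3 in control and 1.83 and 1.45 RPM in knockout libraries, not called. Of 56 zinc finger factors 14 were members, 6 called lower (median -1.14) and 2, Zic4 and Sp8, called higher in RNA. Prdm8 had 3.38 and 4.05 RPM of H3K4me3 in control and 0.261 and 0.784 RPM in knockout libraries, a change of -3.03 (limma adjusted p = 0.0077). Prdm12, a factor of sensory neurons, had 4.73 and 5.49 RPM in control and 1.04 and 1.87 RPM in knockout libraries (limma adjusted p = 0.0457). Of 37 nuclear receptors 7 were members, 5 called lower (median -1.32) and 6 still bivalent. Pgr, the progesterone receptor, had 9.65 and 14.1 RPM in control and 1.57 and 3.86 RPM in knockout libraries (limma adjusted p = 0.00533).

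Signalling genes were counted in 3 lists. Of 52 Wnt ligands and pathway genes 15 were members, 7 called lower in H3K4me3 (median -1.34). Wnt11 had 9.85 and 11.8 RPM of H3K4me3 in control and 2.35 and 6.09 RPM in knockout libraries (limma adjusted p = 0.0355). Of 46 FGF, hedgehog and Notch genes 10 were members, 2 called lower (median -1.35). Fgf4, a ligand made by pluripotent cells, had 4.83 and 6.38 RPM in control and 0.261 and 1.57 RPM in knockout libraries (limma adjusted p = 0.00375), while its H3K27me3 was 11.4 and 6.32 RPM against 10.8 and 9.01 RPM. Fgf4 had 1 RNA read in knockout replicate 1 and 0 in the other RNA libraries. Of 62 TGF-beta and BMP genes 11 were members, 4 called lower (median -1.04) and 9 still bivalent. Grem1, a secreted BMP antagonist, had 12.7 and 16.5 RPM in control and 1.57 and 8.75 RPM in knockout libraries (limma adjusted p = 0.00556). None of the Wnt, FGF, hedgehog, Notch, TGF-beta or BMP members tested was called in RNA (12, 7 and 8 tested in the 3 lists).

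Among neuronal and structural genes, 28 of 86 neurotransmitter receptors were members, 15 called lower in H3K4me3 (median -1.36). Drd5, a dopamine receptor, had 8.69 and 10.9 RPM in control and 1.31 and 3.86 RPM in knockout libraries (limma adjusted p = 0.00904). Of 60 voltage-gated ion channel genes 14 were members, and 11 of the 14 were called lower (median -1.50). Over all members 46.8% were called lower and over all windows 9.9%, and the difference was not tested. Kcna2, a potassium channel of axons, had 9.17 and 13.6 RPM in control and 2.61 and 4.64 RPM in knockout libraries (limma adjusted p = 0.0208). Of 66 axon guidance genes 10 were members, 4 called lower (median -0.94) and 8 still bivalent. Ntng2, a netrin-related membrane protein, kept 8.88 and 12.003 RPM in knockout libraries against 13.9 and 18.1 RPM in control, not called. Of 38 collagens 3 were members (Col4a3, Col4a4 and Col9a2), 2 of them called lower, and none was bivalent in knockout cells.

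**Figure D5:**
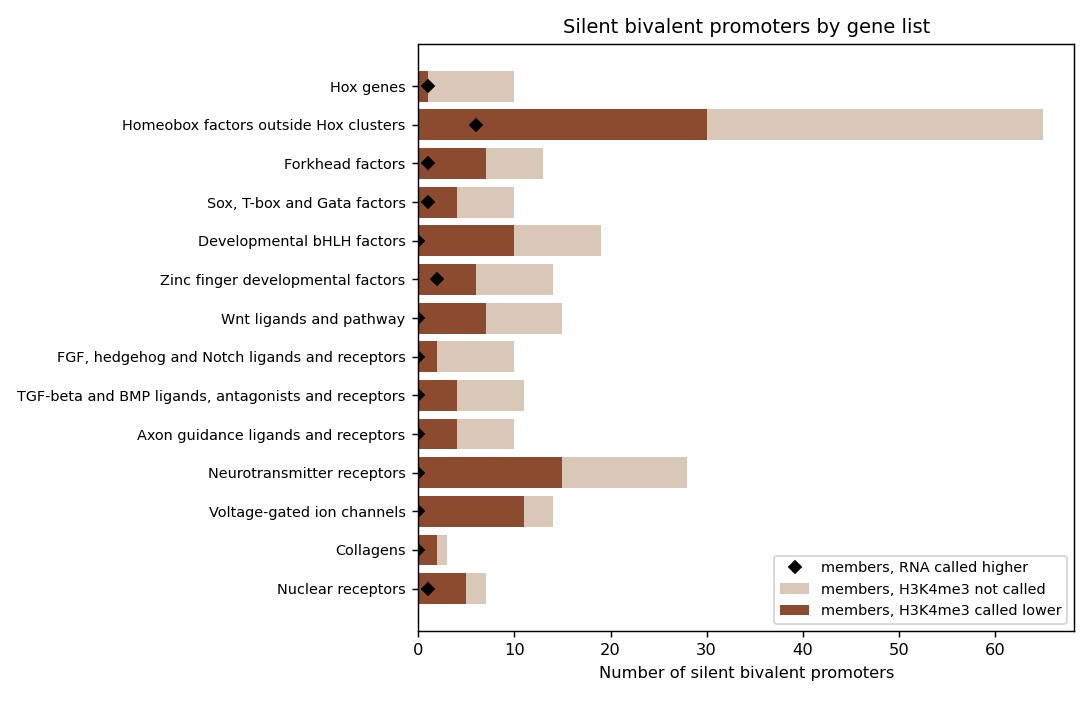
Number of silent bivalent promoters in each of 14 gene lists. Dark bars are members with H3K4me3 called lower in knockout libraries by limma, light bars members not called, and diamonds members with RNA called higher. Homeobox factors outside the Hox clusters hold the most members, with 65, of which 30 were called lower in H3K4me3 and 6 higher in RNA.

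Members were spread over the genome. Their share of windows per chromosome ran from 2.75% on the X chromosome to 6.78% on chromosome 18, and no member lay among the 378 windows of the Y chromosome. Another member's start lay within 1000 bases of 86 members, and these may share the reads of 1 promoter region. An expressed gene's start lay as near at 43 members, and without them 563 of 1200 members were called lower in H3K4me3, with a median of -1.37. All 22 RNA calls were among members without such a neighbour. Symbols of predicted or clone-based genes made up 23.5% of members (292) and 28.0% of all windows.

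The thresholds divide continuous values. Just inside the H3K4me3 limit of 1.5 stood Scn1a at 1.5046 and Dll3 at 1.5119, and just outside it Abra at 1.4935 and Sstr1 at 1.4925, each the lower of the 2 control libraries. Just inside the H3K27me3 limit of 1 stood Tmem136 at 1.0013 and Gm15396 at 1.0017, and just outside it Fah and Pgr15l, both at 0.9990. Nearest the RNA limit of 0 were Zfp488 at -0.0126 and Ngfr at -0.0217 inside, and Rasd1 at 0.0015 and Slc7a14 at 0.0040 outside.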

How the data were processed

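The authors deposited log2 RPM per gene window for 16 chromatin libraries and log2 RPM per gene for 4 RNA libraries, not divided by gene length. TopHat2 2.0.14, Bowtie 1.1.1, Trim Galore 0.4.0 and CASAVA 1.8 are named without roles, with the genome build mm10, per the submitters' processing notes. The window size, the counting tool and its strand setting are not given in the sources used here. H3K9me3 and its inputs were made with another library kit, per the labels' protocols. Within a library, values were whole multiples of 1 read (100% within 0.1), and a gene with no read stood at 0.9 of a read, which gave the reads printed here.

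Groups were compared with limma 3.58.1 in R 4.3.3 (mean-variance trend, two-sided, Benjamini-Hochberg over all rows tested, adjusted p under 0.05) on the log2 values as deposited, where the mean over the libraries compared reached 1 RPM for windows or 0.1 RPM for genes. Marks over input used log2(RPM + 0.5), with a mean of at least 0.5 RPM (0.1 RPM for H3K9me3). The fits were tested on simulated data. Alternatives changed normalization, filter, pseudocount, block and thresholds, used limma voom on recovered reads, or left out each library.

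The members and the gene lists were chosen with earlier results of these data known. Named members are the 12 largest called H3K4me3 decreases on log2(RPM + 0.5) with groups that do not overlap, the 8 highest in knockout H3K4me3 over input, the 6 largest H3K27me3 changes each way on log2(RPM + 0.5), the 10 largest called RNA changes, the 4 highest in H3K9me3, those nearest each threshold, and, from each list, members among the 2 highest in control H3K27me3 over input.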

Additional observations from a re-analysis of the deposited data

How the results depend on the processing

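The median H3K4me3 change of the members was negative under all alternatives tried, while the number of calls varied. In place of 582 calls, 125 were made with quantile normalization, 112 after the median change of all windows was subtracted (shift removal), 889 with limma voom and 1039 with a replicate block, and leaving out 1 library gave 0 to 1136. The median was -0.44 with quantile normalization. Over windows or genes, the deviations of same-numbered libraries correlated at r = 0.15 for H3K4me3, 0.06 for H3K27me3 and 0.03 for RNA. Such a correlation need not show a shift common to a whole library. In H3K27me3 replicate 1 stood above replicate 2 in both groups (members' medians 5.34 and 3.39 RPM in control, 7.09 and 4.65 RPM in knockout). Whether same-numbered libraries are pairs is therefore not settled. The labels do not tie a number to a cell line, so the block was not used for the text. For H3K27me3 the block gave 304 members higher, leaving out 1 library 0 to 1, and centring each library on its median (chosen after seeing the data) 54 lower and 2 higher. The H3K27me3 median was -0.0656 with shift removal and -0.20 with library centring. For RNA, 22 higher and 0 lower became 10 and 2 with no filter, 5 with quantile normalization, 83 and 3 with the block, 7 with a stricter filter (a mean log2 of 0 or more), and 24 to 107 higher and 0 to 9 lower without 1 library. The RNA median (0.40) was 0.24 with no filter, 0.10 with quantile normalization, 0.31 with shift removal, 0.25 with library centring, 0.31 on log2(RPM + 0.1), 0.78 with the stricter filter, which keeps members through high knockout values, and 0.36 to 0.48 without 1 library. Over input, quantile normalization, which forces equal distributions on mark and input, left 0 members above input for H3K4me3, 455 for H3K27me3, and 0 below and 2 above for H3K9me3. Without 1 library, H3K9me3 was called above input at 1 to 6 members. Single members that changed sign were Egr3 in H3K4me3 (0.23 with quantile normalization, 0.0565 and 0.0869 with shift removal and library centring, and -0.447 to 0.0406 over the fits without 1 library) and, in H3K27me3 without 1 library, Tusc5 (-1.58 to 0.026), Gm12698 (-1.57 to 0.0872), Foxi1 (-0.98 to 0.0372) and Tnfsf8 (-0.96 to 0.0545), each positive without knockout replicate 2. Thresholds of 2 and 1.5 gave 760 members, and a mean control log2 RPM of RNA under -2 gave 740. No block could be fitted for H3K9me3, whose inputs carry other numbers, and the sequence counts over a shorter window were not run, since under 80% of members had a sequence. The causes of these differences were not tested. With 2 libraries per group, a median of 11 reads per member in H3K4me3 knockout replicate 1, 6 to 8 in the inputs and 3 to 4 in H3K9me3, the precision at single members with few reads is limited.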
